A study of Mus musculus with 2 samples.

Results

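The ErbB signaling genes described here, 9 in all, were followed in scRNA-Seq of mouse muscle at 7 days post nerve injury (7 dpi). They were chosen by symbol and comprised 5 ligands (*Nrg1*, *Areg*, *Ereg*, *Hbegf* and *Btc*) and 4 receptors (*Egfr*, *Erbb2*, *Erbb3* and *Erbb4*). All 9 symbols were found, each on 1 of the 32287 features of the count tables. *Nrg1* had been known from these data as a leading gene of an inflammatory phagocyte group and *Erbb3* as a Schwann cell marker, so their placement in those cells is given as a description.

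Male mice, 10 to 16 weeks old, had both peroneal nerves injured. The tibialis anterior then received 10 μL with 2 μg of an antibody that neutralizes SPP1 (SPP1-nAb), or with 2 μg of goat anti-mouse IgG, at injury and every 2 days. SPP1, or osteopontin, is a secreted phosphoprotein that binds integrins and CD44, and the comparison asks how cells of the injured muscle differ when it is neutralized. Each treatment gave 1 library from pooled mice, whose number is not given in the sources used here, so no test between treatments was possible. The labels give the strain as C57BL/6J, and the study's methods describe S100GFP-tg reporter mice, in which the S100B promoter drives GFP. The titles name GFP-positive cells and the protocol names both GFP+PI- and GFP-PI- sorted cells. No separate library of uninjured muscle was included. The sources differ on the muscles taken, tibialis anterior alone or together with gastrocnemius, and only the tibialis anterior is described as injected.

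ErbB receptors are receptor tyrosine kinases that signal as pairs. EGFR binds amphiregulin (*Areg*), epiregulin (*Ereg*), heparin-binding EGF-like growth factor (*Hbegf*) and betacellulin (*Btc*), whereas neuregulin 1 (*Nrg1*) binds ERBB3 and ERBB4. ERBB2 has no ligand of its own and is the common partner, and ERBB3 has little kinase activity and depends on that partner. Most ligands are made as membrane proteins and are shed by ADAM proteases. In nerve and muscle, neuregulin 1 from axons drives Schwann cell survival, migration and myelination through ERBB2 and ERBB3, and neuregulin 1 also acts at the neuromuscular junction.

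In the GRCm39 annotation, the ligands *Ereg* (chr5:91222157-91241505, plus strand), *Areg* (chr5:91287451-91296291, plus strand) and *Btc* (chr5:91505120-91550883, minus strand) lie in this order on the same chromosome. Their gaps are 45.9 kb and 209 kb, and whether other genes lie in them was not examined. *Nrg1* spans chr8:32303906-33374825 on the minus strand and *Hbegf* spans chr18:36637980-36649677 on the minus strand. Among the receptors, *Egfr* (chr11:16702198-16868158, plus strand) and *Erbb2* (chr11:98303203-98328542, plus strand) share a chromosome, *Erbb3* lies at chr10:128403392-128425811 and *Erbb4* at chr1:68071345-69147619, both on the minus strand. All 9 are annotated as protein-coding, and the libraries counted reads from whole genes, so isoforms of *Nrg1* were not told apart.

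The IgG library held 97607674 UMIs in 23779 barcodes and the SPP1-nAb library 127719916 UMIs in 25069 barcodes, and after filters 23385 and 24758 cells remained with medians of 3822 and 4756 UMIs. Cells were placed in 14 classes by counting detected marker genes, and the names stand for cells that carry those markers (X-like). In each library, no marker of a class was at 0 in that class. The markers summed highest in their own class, except that mesenchymal markers reached 35887 CPM in nerve-sheath fibroblast-like cells of the IgG library against 33592 CPM in mesenchymal-like cells. Cells that passed the gates of more than 1 class, 4.89% and 5.01%, were left out. Mononuclear phagocyte-like cells, called phagocytes from here on, were 12503 and 15767 cells, mesenchymal-like cells 2389 and 992, Schwann-like cells 392 and 413, and tenocyte-like cells 712 and 410. Between the libraries, 163 barcodes were shared. Levels are CPM, the UMIs of a gene divided by all UMIs of the class and library and given per 1000000 UMIs, with exact 95% Poisson intervals that cover counting error only. Levels were compared for 1 gene between classes or libraries, not between genes.

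**Figure D1:**
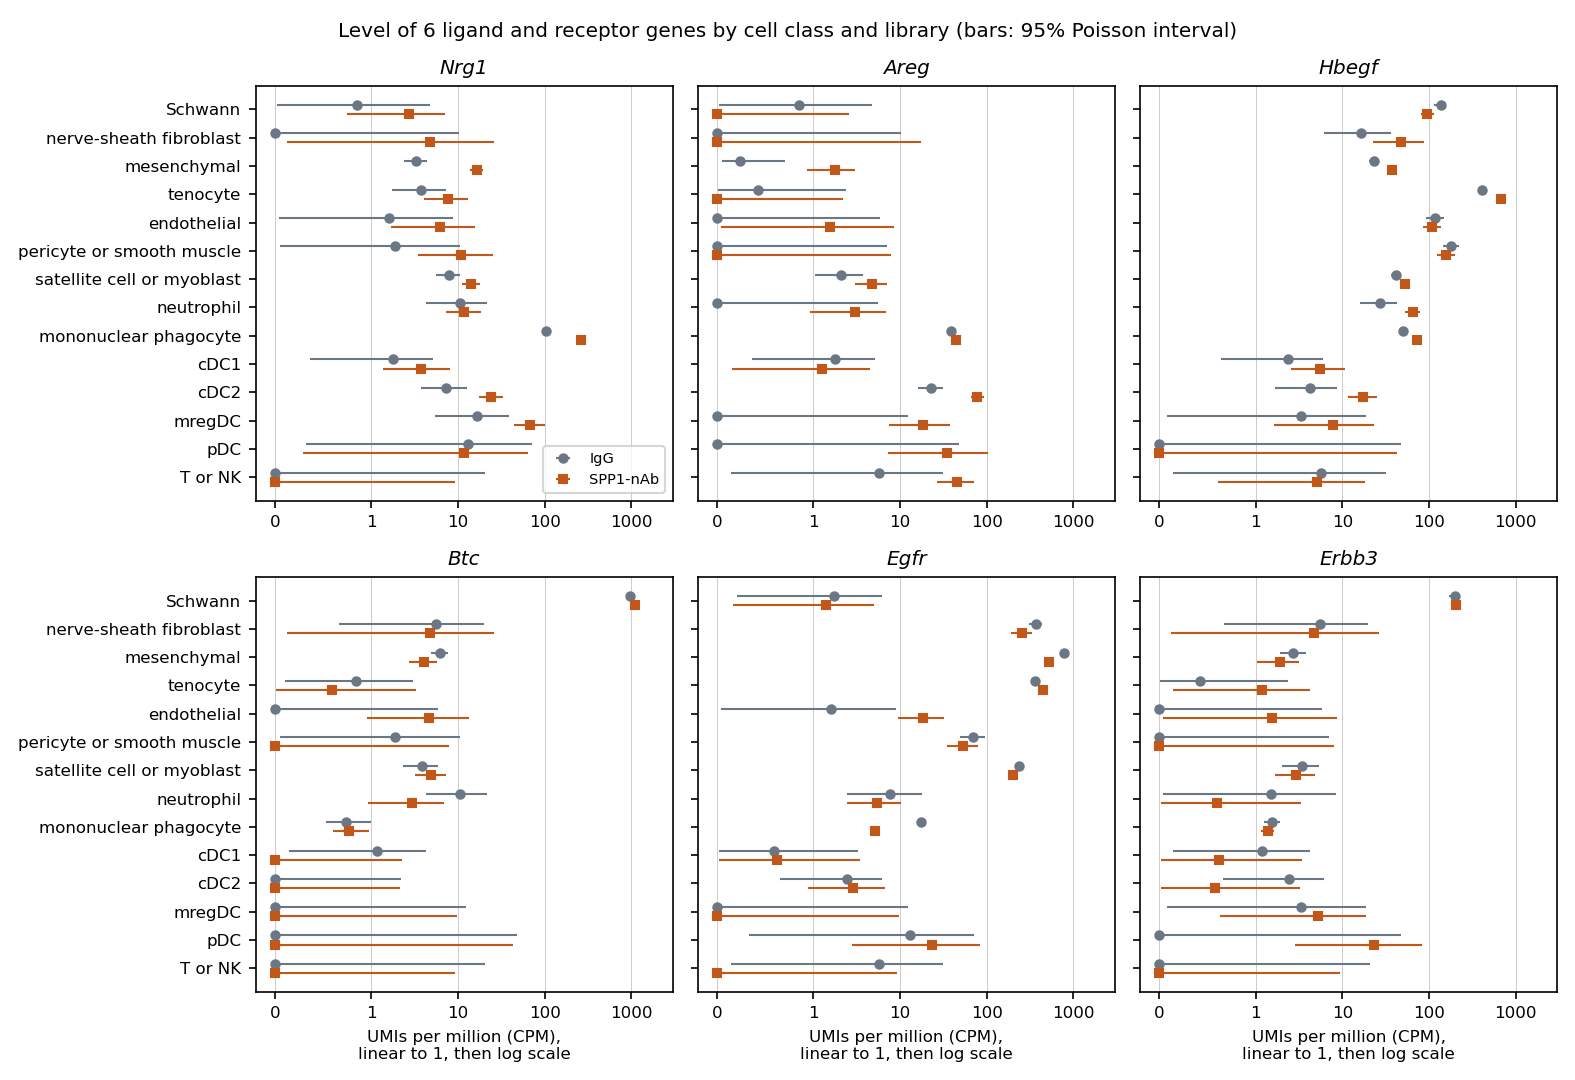
Levels of 6 of the 9 genes in 14 cell classes, on the x axis in CPM (linear to 1, then logarithmic). Circles stand for the IgG library and squares for the SPP1-nAb library, with 95% Poisson intervals as bars. *Btc* and *Erbb3* stood highest in Schwann-like cells, *Nrg1* in phagocytes, *Egfr* in mesenchymal-like cells and *Hbegf* in tenocyte-like cells.

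*Nrg1* was mostly a phagocyte transcript among the classified cells, which included no class of neurons or muscle fibers and were largely phagocytes. Of its UMIs in classified cells, 98.0% in the IgG library and 98.6% in the SPP1-nAb library were in phagocytes. Its level there was 105 CPM (103 to 108) with IgG and 261 CPM (258 to 265) with SPP1-nAb, and the intervals did not overlap. The ratio of SPP1-nAb over IgG was 2.48-fold, or 1.31 on the log2 scale (1.27 to 1.35). *Nrg1* was the only one of 6 members with at least 50 UMIs in phagocytes to be 2-fold or more higher there. Among all 13967 genes with that many UMIs, 1.06% were 2-fold or more higher.

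Cells with an *Nrg1* UMI were also more frequent. At an equal depth of 2000 UMIs, 8.58% of 11825 phagocytes carried *Nrg1* with IgG and 18.6% of 15251 with SPP1-nAb. Without thinning the shares were 12.3% and 27.6%. As a background, 0 of 309 Schwann-like cells of the IgG library had an *Nrg1* UMI at that depth, which allows a share of up to 1.19%. In the SPP1-nAb library 3 of 364 did, or 0.824% (0.170 to 2.39). Single phagocytes held up to 48 and 104 *Nrg1* UMIs, and the 1% of phagocytes with the most held 33.8% and 22.3% of the total.

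Within phagocytes, the gene was higher with SPP1-nAb in all 5 subclasses. Inflammatory phagocyte-like cells, marked by genes such as *Arg1*, *Cxcl3* and *Il1a*, had 273 CPM with IgG and 478 CPM with SPP1-nAb, the highest values of the subclasses. Lipid-handling phagocyte-like cells (*Gpnmb*, *Fabp5*) had 78.5 and 155 CPM. Interferon-response monocyte-like cells (*Rsad2*, *Isg15*) had 90.5 and 179 CPM. Each of these ratios was under 2-fold, at 0.81 (0.71 to 0.91), 0.98 (0.86 to 1.10) and 0.98 (0.84 to 1.12) on the log2 scale. Among all genes, 1.31%, 1.02% and 0.751% were 2-fold or more higher in these subclasses, and 0.753%, 0.905% and 0.622% lower, and no member passed 2-fold in either direction. Over the alternatives the *Nrg1* ratio ranged from 0.68 to 0.89 in inflammatory cells, from 0.73 to 1.20 in lipid-handling cells and from 0.90 to 1.20 in interferon-response cells, so the last 2 lie on both sides of 2-fold. Phagocytes placed in none of the 4 programs had 127 and 293 CPM, 2.31-fold. Among 12246 genes there, 0.849% were 2-fold or more higher and 2.10% lower. These cells fell short of every gate or had a tie, so they were not free of the programs. They included 511 cells with IgG and 1211 with SPP1-nAb that were 1 marker short of the inflammatory gate.

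Resident macrophage-like cells, marked by *Lyve1*, *Cd209f*, *Timd4* and *Folr2*, stood apart in the ratio. *Nrg1* was at 40.1 CPM (36.6 to 43.8) in 2907 cells with IgG, the lowest of the 5 subclasses, and at 248 CPM (238 to 257) in 2070 cells with SPP1-nAb. This was 6.18-fold, or 2.63 (2.49 to 2.77) on the log2 scale. In this subclass 1.10% of 10944 genes were 2-fold or more higher with SPP1-nAb, and *Nrg1* and *Areg* were the members among them. The share of cells with an *Nrg1* UMI at 2000 UMIs was 2.39% and 11.6%.

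**Figure D2:**
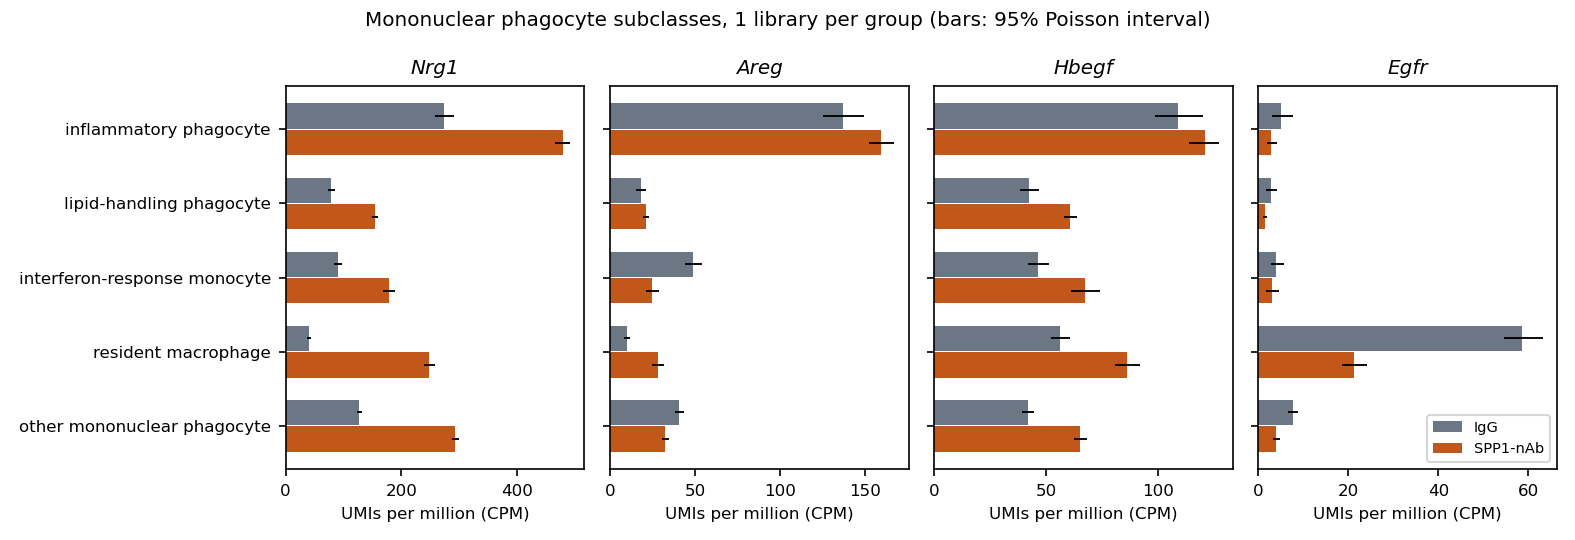
Levels (x axes, CPM from 0) of *Nrg1*, *Areg*, *Hbegf* and *Egfr* in 5 phagocyte subclasses, with 1 bar per library and 95% Poisson intervals. *Nrg1* was higher with SPP1-nAb in every subclass, and *Egfr* stood out in resident macrophage-like cells at 58.7 CPM with IgG and 21.3 CPM with SPP1-nAb.

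The resident macrophage-like cells were also split by their inflammatory markers. Cells with none of these markers had 19.5 CPM of *Nrg1* with IgG and 80.8 CPM with SPP1-nAb. Cells with 2 or more had 140 and 558 CPM, and they numbered 228 of 2907 with IgG and 507 of 2070 with SPP1-nAb. In cells with 6 or more resident markers the values were 16.8 and 108 CPM. The gene was higher with SPP1-nAb also in cells with no inflammatory marker detected and in cells with the most resident markers. Few of these cells had an *Nrg1* UMI. In cells with no inflammatory marker they were 50 of 1993 with IgG and 73 of 967 with SPP1-nAb. In cells with 6 or more resident markers they were 14 of 962 and 31 of 391. With clusters in place of gates the log2 ratio was 1.80, and without the 1% of cells with the most *Nrg1* it was 3.76. Because few cells carried *Nrg1*, that cut can take unequal parts of its UMIs from the libraries, so 3.76 is no check of the ratio.

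Across all phagocytes, *Nrg1* went up with the number of inflammatory markers detected in a cell. The gene was already known from these data to lead that group, so the rise is a description. With IgG it was 30.4 CPM in cells with none of the 8 markers, 133 CPM in cells with 2 and 266 CPM in cells with 5. With SPP1-nAb these values were 91.0, 265 and 404 CPM. Beyond 5 markers the order was uneven: with IgG the level was 154 CPM at 6 and 265 CPM at 7, and with SPP1-nAb it was 412 and 275 CPM. The median depth also went up, from 3556 to 6478 UMIs with IgG and from 4052 to 6971 with SPP1-nAb, and its part in the pattern was not tested. The SPP1-nAb library held more cells with many markers, and with the cells weighted to the same marker numbers as in the IgG library the log2 ratio was 0.95, below 2-fold.

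**Figure D3:**
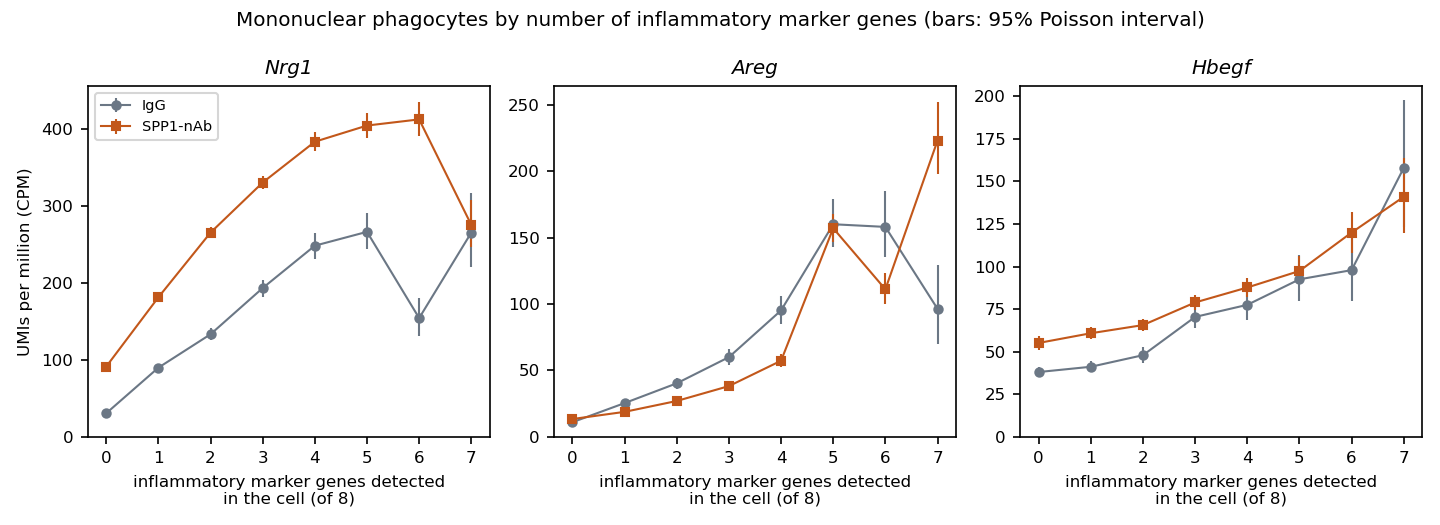
Levels (y axes, CPM from 0) of *Nrg1*, *Areg* and *Hbegf* in phagocytes by the number of inflammatory marker genes detected in the cell (x axes, 0 to 7 of 8), with 95% Poisson intervals. *Nrg1* of the SPP1-nAb library lies above that of the IgG library from 0 to 6 markers, and at 7 markers the intervals overlap, with 275 and 265 CPM.

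Outside phagocytes *Nrg1* was sparse. In Schwann-like cells it had 1 and 4 UMIs, so the ligand was hardly counted in the cells that held most of its receptor *Erbb3*. Conventional type 2 dendritic cell-like cells (cDC2) had 12 and 42 UMIs, or 7.22 and 24.3 CPM. Mature regulatory dendritic cell-like cells (mregDC), with 66 and 72 cells, had 5 and 26 UMIs. Satellite cell or myoblast-like cells, the muscle progenitors, had 41 and 72 UMIs, or 7.81 CPM (5.60 to 10.6) and 14.2 CPM (11.1 to 17.9).

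Mesenchymal-like cells had 41 *Nrg1* UMIs with IgG and 122 with SPP1-nAb, or 3.28 CPM (2.36 to 4.45) and 16.5 CPM (13.7 to 19.7), a log2 ratio of 2.33 (1.81 to 2.88). In this class 1.91% of 11916 genes were 2-fold or more higher. The UMIs were in 33 and 46 cells, with up to 4 and 17 in 1 cell. If they had come with phagocyte markers in the ratio found in phagocytes, 26.9 and 46.7 UMIs would have been counted. In satellite cell or myoblast-like cells 10.0 and 25.4 would have been counted against the 41 and 72 observed, and in Schwann-like cells 2.91 and 9.49 against 1 and 4. The satellite cell or myoblast-like UMIs were in 16 of 1756 and 43 of 1132 cells, with up to 11 in 1 cell. The part of doublets in them was not tested. The mesenchymal log2 ratio was 1.70 with clusters. It was 3.11 without the 1% of cells with the most *Nrg1*, which held 78.0% of the UMIs with IgG and 62.3% with SPP1-nAb. That cut took unequal parts of the UMIs from the libraries, so 3.11 is no check of the ratio.

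*Areg* encodes an EGFR ligand that regulatory T cells and innate lymphoid cells are known to release in injured tissue. Here it was counted mostly in phagocytes, which held 97.4% and 94.9% of its UMIs in classified cells. That share also follows class size, with 12503 and 15767 phagocytes against 44 and 74 T or NK-like cells. The phagocyte level was 38.3 CPM (36.7 to 39.9) with IgG and 43.8 CPM (42.4 to 45.2) with SPP1-nAb. This was a log2 ratio of 0.20 (0.12 to 0.27). Few cells carried it. At 2000 UMIs the shares were 1.95% and 2.47%, and the 1% of phagocytes with the most *Areg* held 84.1% and 75.6% of the UMIs, with up to 131 and 83 in 1 cell. Without those cells, which held a larger share of the UMIs with IgG, the log2 ratio was 0.81, so this value is no check of the ratio.

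*Areg* and *Btc*, with a gap of 209 kb on chromosome 5, were counted in different classes, *Areg* in phagocytes and *Btc* in Schwann-like cells. The 250 bases upstream of their starts are therefore shown. They are from RefSeq (GRCm38.p6), which gave entries for 5 of the 9 members, and run 5′ to 3′ on the strand of the gene, chr5:91139349-91139598 for *Areg* and chr5:91402995-91403244 for *Btc*. Capitals mark matches, on either strand, to any of 4 short motifs. The CRE motif was TGACGTCA. The motif of SOX factors, a group with known roles in glia, was AACAAT. The TATA motif was searched as the letters TATAAA. The AP-1 motif was searched as TGANTCA, where N is any base.
Areg: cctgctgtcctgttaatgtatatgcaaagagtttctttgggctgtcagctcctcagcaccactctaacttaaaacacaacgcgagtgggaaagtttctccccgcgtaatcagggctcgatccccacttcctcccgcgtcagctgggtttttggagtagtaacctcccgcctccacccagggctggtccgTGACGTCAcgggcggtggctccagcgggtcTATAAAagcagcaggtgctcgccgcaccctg
Btc: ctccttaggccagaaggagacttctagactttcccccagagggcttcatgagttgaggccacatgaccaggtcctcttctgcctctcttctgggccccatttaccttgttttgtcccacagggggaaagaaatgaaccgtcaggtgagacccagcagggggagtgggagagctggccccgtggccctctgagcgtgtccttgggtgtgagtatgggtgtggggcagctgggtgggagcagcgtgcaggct
The *Areg* sequence held a CRE match from 61 to 54 bases and a TATA match from 31 to 26 bases before the start, which do not overlap, and the *Btc* sequence held no match. Of 32851 upstream sequences of this length, 1.55% held the CRE, 12.4% the TATA, 6.75% the AP-1 and 9.42% the SOX letters. A match is a description of letters and not of a bound site.

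By subclass, *Areg* was highest in inflammatory phagocyte-like cells, at 137 CPM (125 to 149) with IgG and 159 CPM (152 to 167) with SPP1-nAb, and the log2 ratio of 0.22 (0.08 to 0.37) turned to -0.26 with clusters in place of gates. Resident macrophage-like cells had 9.91 and 28.3 CPM, a log2 ratio of 1.51 (1.20 to 1.83), which was 2.24 without the 1% of cells with the most *Areg*. Interferon-response monocyte-like cells went the other way, with 48.9 and 24.7 CPM and a log2 ratio of -0.99 (-1.27 to -0.72) that was -0.34 without such cells. At matched numbers of inflammatory markers, the *Areg* level was lower with SPP1-nAb in cells with 1 to 4 or 6 markers. It was 95.1 and 57.2 CPM at 4, and 158 CPM (135 to 185) and 111 CPM (99.8 to 123) at 6. It was 160 and 157 CPM at 5 and 10.9 and 13.3 CPM at 0, with overlapping intervals. At 7 markers the order was turned, with 96.3 CPM (70.0 to 129) in 66 cells with IgG and 223 CPM (198 to 252) in 153 cells with SPP1-nAb. The share of cells with an *Areg* UMI, at equal depth, did not follow the level at 1 and 4 markers. It was 1.30% with IgG and 1.49% with SPP1-nAb at 1, and 2.93% and 3.42% at 4. The share was lower with SPP1-nAb at 2 (2.52% and 2.04%), 3 (3.02% and 2.47%) and 6 markers (9.43% and 6.94%). The intervals of the levels do not cover UMIs gathered in few cells.

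In cDC2-like cells *Areg* had 38 UMIs in 19 of 328 cells with IgG and 134 UMIs in 41 of 292 cells with SPP1-nAb. The levels were 22.9 CPM (16.2 to 31.4) and 77.5 CPM (64.9 to 91.8), a log2 ratio of 1.76 (1.23 to 2.32), so *Areg* was lower here than in phagocytes with IgG and higher than in phagocytes with SPP1-nAb. *Nrg1* and *Areg* were the 2 members with at least 50 UMIs in this class and both were 2-fold or more higher, where 0.970% of 5982 genes were. With 1 marker more in the gate the *Areg* log2 ratio was 0.94, below 2-fold, and 168 and 148 of the cells sat exactly at the gate. Phagocyte markers summed to 1769 and 1570 CPM in these cells, against 14052 and 13444 CPM in phagocytes. *Nrg1* was at 7.22 and 24.3 CPM in the cDC2-like cells, against 105 and 261 CPM in phagocytes. The part of phagocyte RNA in the *Nrg1* and *Areg* values of cDC2-like cells was not tested. T or NK-like cells had 1 *Areg* UMI in 44 cells with IgG, or 5.65 CPM (0.143 to 31.5). With SPP1-nAb they had 18 UMIs in 5 of 74 cells, up to 8 in 1 cell, or 45.3 CPM (26.9 to 71.7). All 6 regulatory T cell markers searched were detected in these cells in each library, among them *Foxp3* with 1 UMI in each. Of 7 markers of type 2 innate lymphoid cells, 3 were detected with IgG and 4 with SPP1-nAb.

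*Hbegf*, which encodes an EGFR and ERBB4 ligand whose precursor stays bound to the cell surface until it is shed, was detected in most stromal classes. Its level was highest in tenocyte-like cells, at 409 CPM (384 to 436) with IgG and 676 CPM (638 to 717) with SPP1-nAb, a log2 ratio of 0.72 (0.60 to 0.85). Pericyte or smooth muscle-like cells followed, and their levels of 180 CPM (145 to 220) with IgG and 159 CPM (125 to 200) with SPP1-nAb had overlapping intervals. Schwann-like cells (136 and 95.7 CPM) and endothelial-like cells (118 and 109 CPM) came next, and their intervals overlapped with each other in each library.

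Schwann-like cells were the class in which *Hbegf* was lower with SPP1-nAb beyond counting error. They held 159 UMIs, or 136 CPM (115 to 158), with IgG and 139 UMIs, or 95.7 CPM (80.5 to 113), with SPP1-nAb. The log2 ratio was -0.50 (-0.84 to -0.17). At 2000 UMIs, 17.2% (13.1 to 21.8) and 12.6% (9.40 to 16.5) of the cells had a UMI, with overlapping intervals. The ratios of *Hbegf* in endothelial-like and pericyte or smooth muscle-like cells, -0.11 (-0.60 to 0.38) and -0.18 (-0.63 to 0.28), were not distinguishable from 0.

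Besides tenocyte-like cells, 4 classes had more *Hbegf* with SPP1-nAb. In phagocytes it was 50.4 CPM (48.6 to 52.3) and 73.5 CPM (71.7 to 75.3), a log2 ratio of 0.54 (0.48 to 0.61), and mesenchymal-like cells had 22.9 and 37.1 CPM, a log2 ratio of 0.70 (0.45 to 0.94). Neutrophil-like cells had 18 UMIs with IgG and 109 with SPP1-nAb, or 27.3 and 65.0 CPM, a log2 ratio of 1.25 (0.52 to 2.06), in a class where 1.82% of 4449 genes were 2-fold or more higher. Their median depths were only 1235 and 1380 UMIs. The *Hbegf* UMIs were in 12 of 506 and 60 of 1142 neutrophil-like cells, and with SPP1-nAb 12 cells held 47.7% of them. Phagocyte markers summed to 4155 and 4135 CPM in this class, and the part of phagocyte RNA in its *Hbegf* was not tested. Satellite cell or myoblast-like cells had 42.1 and 53.4 CPM, a log2 ratio of 0.34 (0.08 to 0.61).

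Within phagocytes *Hbegf* varied less between subclasses than *Nrg1* did. With IgG it ranged from 42.1 CPM in cells placed in none of the 4 programs to 109 CPM in inflammatory phagocyte-like cells. With SPP1-nAb it ranged from 60.9 CPM in lipid-handling cells to 121 CPM in inflammatory cells. The log2 ratio was 0.15 (-0.01 to 0.31) in inflammatory cells and 0.61 (0.47 to 0.76) in resident macrophage-like cells. At 2000 UMIs, 9.36% of phagocytes with *Nrg1* and 7.32% of those without it also had *Hbegf* with IgG, and 11.3% and 11.0% with SPP1-nAb.

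*Btc*, which encodes betacellulin, a ligand of EGFR and ERBB4, was counted almost only in Schwann-like cells, which held 88.2% and 92.4% of its UMIs in classified cells. The level was 965 CPM (909 to 1023) from 1131 UMIs with IgG and 1108 CPM (1055 to 1164) from 1609 UMIs with SPP1-nAb. The log2 ratio was 0.20 (0.09 to 0.31), and it was 0.06 (-0.06 to 0.19) with 1 marker more in the gate and 0.09 (-0.01 to 0.18) with clusters, where the intervals reach 0, and between 0.16 and 0.24 under the other alternatives. At 2000 UMIs, 64.7% (59.1 to 70.1) of 309 and 77.5% (72.8 to 81.7) of 364 Schwann-like cells had a *Btc* UMI, with intervals that did not overlap, against 0.118% and 0.131% of phagocytes. Neutrophil-like cells were next by mean level, at 10.6 and 2.98 CPM from 7 and 5 UMIs. In mesenchymal-like cells *Btc* had 77 and 30 UMIs, or 6.16 and 4.07 CPM.

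The level of *Btc* differed within the Schwann-like cells. Cells with a UMI of *Reln*, which encodes the secreted glycoprotein reelin, had 718 CPM (649 to 792) of *Btc* with IgG and 764 CPM (700 to 831) with SPP1-nAb. In cells without *Reln* it was 1187 CPM (1102 to 1276) and 1432 CPM (1347 to 1520). The intervals of cells with and without *Reln* did not overlap in either library, and those of the 2 libraries overlapped in cells with *Reln* and did not in cells without it. The share of cells with *Btc* was 68.5% and 68.8% with IgG, and 80.8% and 84.7% with SPP1-nAb, so the difference lay in the number of UMIs. Among cells with at least 2000 UMIs the levels were 732 and 1183 CPM with IgG and 760 and 1452 CPM with SPP1-nAb.

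**Figure D4:**
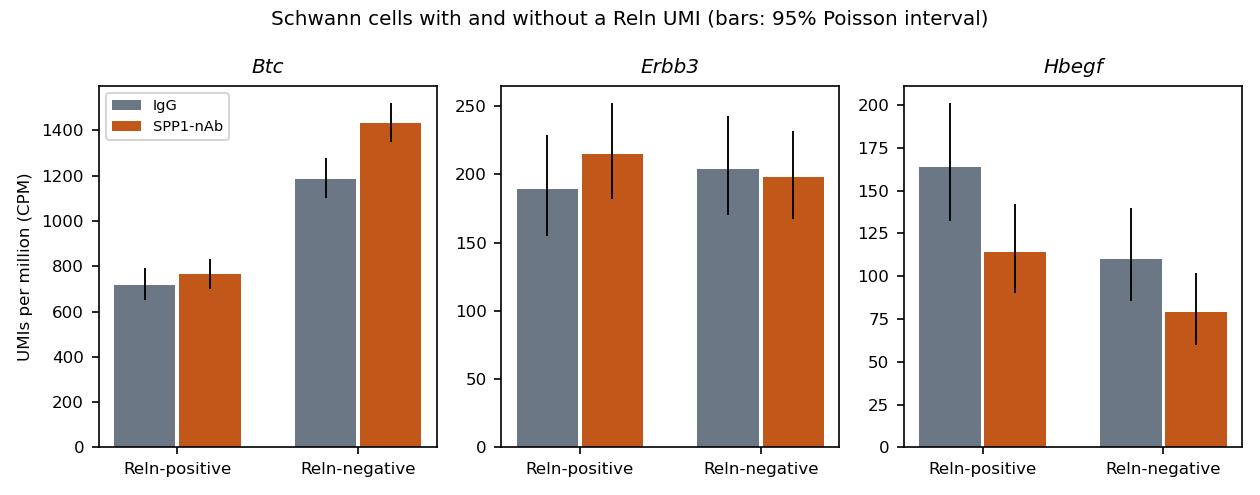
Levels (y axes, CPM from 0) of *Btc*, *Erbb3* and *Hbegf* in Schwann-like cells with a *Reln* UMI (168 with IgG, 198 with SPP1-nAb) and without (224 and 215), with 95% Poisson intervals. *Btc* was higher in the cells without *Reln* in both libraries, and the *Erbb3* intervals overlapped.

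*Erbb3*, the neuregulin receptor of Schwann cells, had 231 UMIs or 197 CPM (172 to 224) in Schwann-like cells with IgG and 299 UMIs or 206 CPM (183 to 231) with SPP1-nAb. The log2 ratio was 0.06 (-0.19 to 0.32), which leaves a change of up to 1.25-fold within counting error. Cells with *Reln* had 189 and 215 CPM and cells without it 204 and 198 CPM, with overlapping intervals. A UMI of *Erbb3* was found in 160 of 392 and 195 of 413 Schwann-like cells, and 120 and 160 of these also had *Btc*. In phagocytes the gene had 87 and 121 UMIs, or 1.56 and 1.38 CPM, where the Schwann markers there would have brought 27.5 and 53.3.

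*Erbb2*, the partner that ERBB3 needs, had only 127 and 96 UMIs in all cells. Mesenchymal-like cells held 60 and 27 of them, or 4.80 CPM (3.67 to 6.18) and 3.66 CPM (2.41 to 5.32), which is a log2 ratio of -0.39 (-1.10 to 0.29). Schwann-like cells held 12 UMIs in each library, or 10.2 and 8.26 CPM. *Erbb4*, the other neuregulin receptor, had 29 and 32 UMIs in all cells, too few to place, with 8 and 15 of them in phagocytes and 9 and 6 in satellite cell or myoblast-like cells. *Ereg*, an EGFR and ERBB4 ligand, had 56 and 69 UMIs in all, of which mesenchymal-like cells held 31 in 7 cells with IgG, up to 23 in 1 cell, and 17 with SPP1-nAb. At this depth no difference of *Erbb2*, *Erbb4* or *Ereg* within a class was detectable.

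*Egfr*, the receptor of *Areg*, *Hbegf* and *Btc*, was a stromal and progenitor transcript. It was highest in mesenchymal-like cells, at 782 CPM (767 to 798) with IgG and 522 CPM (506 to 539) with SPP1-nAb, a log2 ratio of -0.58 (-0.64 to -0.53). Nerve-sheath fibroblast-like cells, of which only 68 and 30 were found, had 370 CPM (310 to 438) and 256 CPM (192 to 333). In satellite cell or myoblast-like cells *Egfr* was 233 CPM (220 to 247) and 201 CPM (189 to 214), a log2 ratio of -0.21 (-0.34 to -0.09) that was -0.05 as a mean over cells. Pericyte or smooth muscle-like cells had 70.0 and 53.8 CPM.

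In tenocyte-like cells *Egfr* went the other way, from 360 CPM (336 to 385) with IgG to 448 CPM (417 to 481) with SPP1-nAb, a log2 ratio of 0.32 (0.17 to 0.46). These were also the cells with the highest *Hbegf*, and both the ligand and the receptor were higher with SPP1-nAb there. In Schwann-like cells *Egfr* had 2 UMIs in each library, although they held the most *Btc*. Over all cells *Egfr* was 159 and 64.3 CPM, a larger gap than in any of the 4 classes with the highest levels, and mesenchymal-like cells were 2389 with IgG and 992 with SPP1-nAb.

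Among phagocytes *Egfr* marked the resident macrophage-like cells, which held 717 of its 971 phagocyte UMIs with IgG and 226 of 452 with SPP1-nAb. Their level was 58.7 CPM (54.5 to 63.2) with IgG and 21.3 CPM (18.6 to 24.2) with SPP1-nAb, a log2 ratio of -1.46 (-1.69 to -1.25), and 15.4% and 7.78% of the cells had a UMI. In this subclass 1.63% of 10944 genes were 2-fold or more lower. Over all phagocytes the level was 17.4 and 5.14 CPM, a log2 ratio of -1.76 (-1.92 to -1.60) that was -2.40 without the 1% of cells with the most *Egfr*, and 3.48% of 13967 genes were 2-fold or more lower. In the other subclasses no *Egfr* ratio reached 2-fold. The log2 ratio was -0.76 (-1.62 to 0.14) in inflammatory cells and -0.94 (-1.72 to -0.14) in lipid-handling cells. It was -0.44 (-1.34 to 0.43) in interferon-response cells and -0.93 (-1.26 to -0.60) in phagocytes placed in none of the 4 programs. The ratio over all phagocytes was larger in size than that of any subclass. Resident macrophage-like cells were 2907 of 12503 phagocytes with IgG and 2070 of 15767 with SPP1-nAb. The part of their share in the ratio was not tested.

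The *Egfr* UMIs of resident macrophage-like cells were set beside their mesenchymal markers. All 10 markers summed to 78.7 CPM with IgG and 69.3 CPM with SPP1-nAb, with none at 0, and in the ratio of mesenchymal-like cells they would have brought 22.4 and 12.6 *Egfr* UMIs against the 717 and 226 observed. In the 2174 and 1521 cells with no mesenchymal marker, *Egfr* was at 60.4 CPM (55.4 to 65.7) and 19.5 CPM (16.5 to 22.9). *Egfr* went up with the resident markers of a cell, from 22.5 and 7.09 CPM at 4 markers to 109 and 57.4 CPM at 6 or more, where *Nrg1* went down from 59.7 and 287 CPM to 16.8 and 108 CPM. At 2000 UMIs, *Egfr* was found in 0.690% of phagocytes with *Nrg1* and 3.34% of those without it with IgG, and in 0.598% and 1.07% with SPP1-nAb.

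Over the 14 classes, 26 of 126 pairs of a member and a class had at least 50 UMIs. Of these, 5 were 2-fold or more higher with SPP1-nAb (*Nrg1* in phagocytes, mesenchymal-like and cDC2-like cells, *Areg* in cDC2-like cells and *Hbegf* in neutrophil-like cells) and 1 was 2-fold or more lower (*Egfr* in phagocytes). Among the phagocyte subclasses, *Egfr* was 2-fold or more lower only in resident macrophage-like cells. No member passed 2-fold lower in cDC2-like cells (0.986% of all genes did) or neutrophil-like cells (1.35%). None passed 2-fold in either direction in Schwann-like cells, where 0.661% of 6812 genes were 2-fold or more higher and 0.661% lower. The same held for tenocyte-like cells (0.925% and 0.885%), endothelial-like cells (0.909% and 0.909%), pericyte or smooth muscle-like cells (1.01% and 0.716%), satellite cell or myoblast-like cells (1.19% and 1.69%) and nerve-sheath fibroblast-like cells (2.44% and 2.87%).

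**Figure D5:**
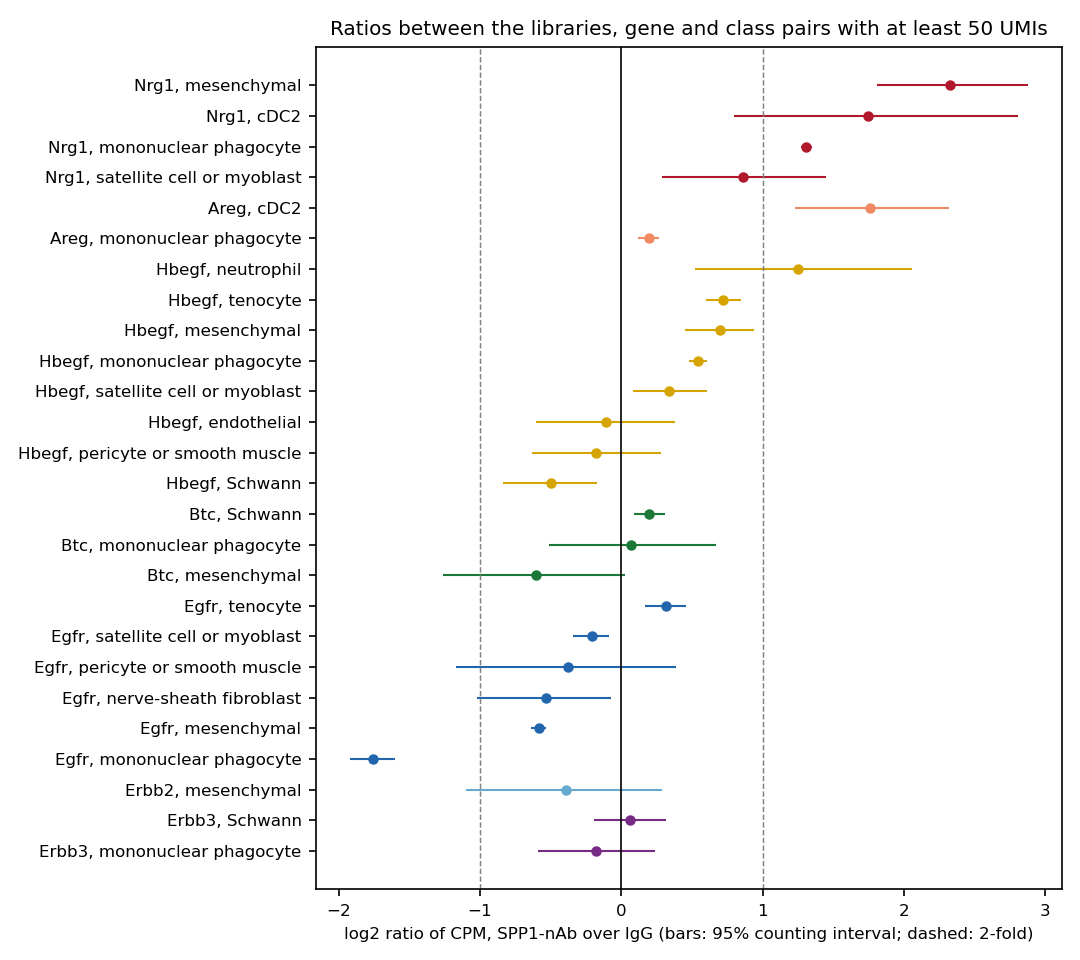
Log2 ratios of CPM, SPP1-nAb over IgG, on the x axis for the 26 pairs of a member and a class with at least 50 UMIs, with 95% counting intervals and dashed lines at 2-fold. *Nrg1* ratios lie right of 0 in 4 of 4 classes, and *Hbegf* and *Egfr* ratios lie on both sides of 0.

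Other genes of the pathway were described by lists. Of 6 other ErbB ligands, 3 had at least 50 UMIs in phagocytes. *Nrg2*, a second neuregulin, was the 1 past 2-fold, lower with SPP1-nAb at 9.26 and 4.06 CPM, a log2 ratio of -1.19 (-1.39 to -0.99). Among all 13967 genes there, 3.48% were 2-fold or more lower. The median log2 ratio of these 3 ligands was -0.76, beside -0.05 over all genes. *Nrg4* was at 2.08 and 2.60 CPM. Of 8 genes for ligand shedding, 7 had at least 50 UMIs in phagocytes, and none passed 2-fold. *Adam17*, the main sheddase of EGFR ligands, was at 147 and 143 CPM and *Adam10* at 133 and 140 CPM. The median log2 ratio of the list was -0.11, beside -0.05 over all genes.

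Of 11 genes for negative feedback, 10 were measurable in phagocytes, and 3 were 2-fold or more lower with SPP1-nAb, as were 3.48% of all genes. *Dusp6*, an ERK phosphatase, was at 62.9 and 26.6 CPM (log2 ratio -1.24), *Spry2*, a Sprouty inhibitor, at 9.85 and 4.81 CPM (-1.03) and *Spry1* at 1.50 and 0.716 CPM (-1.07). The highest 2 of the list, the ubiquitin ligase *Cbl* (206 and 236 CPM) and the EGFR inhibitor *Errfi1* (101 and 116 CPM), were slightly higher with SPP1-nAb, and the list's median was -0.32. The whole list summed to 438 and 447 CPM in phagocytes. Within each of the 5 subclasses 6 or 7 genes were measurable and 1 was 2-fold or more lower, beside 0.622% to 2.10% of all genes. The medians there ran from 0.02 to 0.22, so the subclasses did not show the lower median of all phagocytes. In mesenchymal-like cells *Spry2* was the 1 of 10 that passed 2-fold, at 313 and 143 CPM (-1.14), in a class where 3.28% of 11916 genes were 2-fold or more lower, and *Errfi1* was at 571 and 446 CPM and *Cblb* at 252 and 316 CPM. In satellite cell or myoblast-like cells *Spry2* was also the 1 of 10 past 2-fold, at 157 and 73.7 CPM (-1.09), where 1.69% of all genes were 2-fold or more lower, and *Errfi1* was at 1349 and 1189 CPM and *Spry1* at 190 and 95.4 CPM. In tenocyte-like cells *Errfi1* was higher, at 174 and 286 CPM (0.72), *Spry2* was at 150 and 97.2 CPM (-0.63), and none of 10 passed 2-fold. In Schwann-like cells none of 6 passed, with *Spry2* at 307 and 185 CPM (-0.73) and *Dusp6* at 90.4 and 91.6 CPM.

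Adaptors and kinases such as *Grb2* (347 and 367 CPM), *Gab1* (105 and 141 CPM) and *Pik3r1* (126 and 119 CPM) differed by less than 2-fold in phagocytes, as did all 9 of the list, whose median was 0.10. Among 7 target genes of growth factor signaling, the immediate early factor *Egr1* was lower with SPP1-nAb in phagocytes, at 480 and 206 CPM (-1.22), and the AP-1 subunit *Fosl1* was higher, at 3.35 and 7.51 CPM (1.17), while *Phlda1* was at 121 and 115 CPM. These were 1 lower and 1 higher of 6 measurable, beside 3.48% and 1.06% of all genes. In satellite cell or myoblast-like cells *Fosl1* was the 1 of 6 past 2-fold, at 25.7 and 76.9 CPM (1.58), where 1.19% of all genes were 2-fold or more higher, and *Egr1* was at 2709 and 1415 CPM and *Phlda1* at 198 and 255 CPM. The 10 genes of the dissociation stress response are set beside these values. In phagocytes all 10 were lower with SPP1-nAb, summing to 8132 and 5216 CPM with a median of -0.68. The highest were *Fos* (2318 and 1223 CPM) and *Junb* (1501 and 1315 CPM), and *Jun* (716 and 322 CPM, -1.15) and *Ier2* (151 and 73.4 CPM, -1.04) passed 2-fold. In resident macrophage-like cells the 10 genes summed to 10593 and 8158 CPM. In satellite cell or myoblast-like cells all 10 were lower as well, summing to 9170 and 5349 CPM with a median of -0.64, and *Nr4a1* passed 2-fold at 218 and 101 CPM (-1.11). In mesenchymal-like cells the sums were 8722 and 7424 CPM, in tenocyte-like cells 10640 and 9710 CPM, and in Schwann-like cells 5356 and 5212 CPM. The part of this response in the member and pathway values was not tested.

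Patterns most like each member were sought over 24 points, each a class in a library with at least 50 cells, among 13304 genes. The points of 1 class share their cells' identity and those of 1 library its depth, so the Pearson correlations of log2(CPM + 1) are descriptions. *Nrg1* was most alike to *Lgmn*, a lysosomal protease, at 0.84, followed by *Apobec1* and *Tfec*, both at 0.81. *Areg* was alike to *Cd72* (0.89) and *Slamf6* (0.86), and *Hbegf* to *Mtus1* (0.86), *Msantd3* (0.84) and *Itgb5* (0.83). *Btc* was most alike to *Slitrk6* (0.96), *Gap43* (0.96), a growth cone protein, and *Nrxn3* (0.95). *Egfr* was most alike to *Ddr2*, *Loxl1* and *Mrc2* (0.96 each), which act in collagen binding, crosslinking and uptake, and *Erbb3* to *Ucn2*, *B3galt2* and *Kcnh8* (0.92 each). *Ereg*, *Erbb2* and *Erbb4* had under 200 UMIs in these classes, and their patterns are not given.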

How the data were processed

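Single cells from muscle of 2 groups, IgG and SPP1-nAb, were measured in 1 library each. The authors deposited raw counts, whole-number UMIs per gene and barcode, from CellRanger's filtered output (8.0.0 per the labels and 9.0.1 in the file header, reference GRCm39 with a GFP sequence). The removal of ambient RNA and doublets that the study describes came later and is not in these counts. The labels and methods differ in strain, in the muscles taken and in the sorted fraction.

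The barcodes kept had over 200 detected genes, and mitochondrial UMIs made up under 10% of their total. Cells were assigned to a class when 3 to 5 of its markers (the gate set per class) were detected, and phagocytes to a subclass when at least 4 markers of 1 program, and more than of any other, were. The gates were set after the numbers of detected markers had been seen. Members, marker lists and gene lists were chosen with earlier results of these data known. UMIs were summed per class and library and divided by the class total (CPM). The log2 ratio, SPP1-nAb over IgG, has an exact 95% interval from the binomial share of UMIs, shares of cells have exact (Clopper-Pearson) intervals, and all cover counting error only. Ratios were read from 50 UMIs over both libraries upward. With 1 library per group no p-value was computed. Named were all members with at least 50 UMIs in a class and, in each class for which a pathway list is described, its 2 highest genes and those past 2-fold (the stress list is given as sums outside phagocytes). *Gab1* and *Pik3r1* were about equally high and both were named. For each member the genes most alike in pattern over classes were named, and 1 of them is not reported here. The interval was tested on simulated Poisson counts, which have the error that it assumes. The gates were tested on cells simulated from the profiles of the gated classes themselves. These tests do not cover UMIs gathered in few cells, or whether the gates name the cells rightly. Python 3.11.15, numpy 2.4.6, scipy 1.17.1, scikit-learn 1.9.0 and leidenalg 0.10.2 were used.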

Additional observations from a re-analysis of the deposited data

Results flagged for a closer look

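Some members had ratios on opposite sides of 0 in different classes, with neither counting interval reaching 0. The difference between the classes was not tested, because each group is 1 library.

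*Hbegf* was lower with SPP1-nAb in Schwann-like cells, with a log2 ratio of -0.50, and higher in mesenchymal-like cells (0.70), tenocyte-like cells (0.72), satellite cell or myoblast-like cells (0.34), neutrophil-like cells (1.25) and phagocytes (0.54). *Egfr* was higher in tenocyte-like cells (0.32) and lower in nerve-sheath fibroblast-like cells (-0.53), mesenchymal-like cells (-0.58), satellite cell or myoblast-like cells (-0.21) and phagocytes (-1.76). Within phagocytes, *Areg* was higher in inflammatory phagocyte-like cells (0.22) and resident macrophage-like cells (1.51). It was lower in interferon-response monocyte-like cells (-0.99) and in phagocytes placed in none of the 4 programs (-0.32).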

How the results depend on the processing

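Ratios of the 9 members in the class with most of their UMIs were recomputed under 10 alternatives, and after seeing the data also without shared barcodes and, for *Nrg1*, at matched numbers of inflammatory markers. Of these 98 values, 84 stayed within the counting interval, and no ratio whose interval left out 0 changed sign. *Nrg1* (1.31) was 1.39 without the 10% of cells with the highest doublet scores and 1.36 as the mean over cells. It was 1.54 without the 1% of cells with the most UMIs of the gene itself, and 0.95 at matched marker numbers. *Areg* (0.20) was 0.10, 0.31 and 0.81 under the first 3 of these, and *Hbegf* (0.54) was 0.64, 0.65 and 0.63. *Btc* (0.20) was 0.06 with 1 marker more in the gates and 0.09 with Leiden clusters. *Egfr* (-0.58) was -0.53 as the mean over cells, and *Erbb2* (-0.39) was 0.44 after thinning to 2000 UMIs. Without the 1% of cells with the most UMIs of the gene itself, *Ereg* and *Erbb4* gave no value. This alternative drops the same share of all cells in each library. For a gene found in few cells it can remove unequal parts of the UMIs, so its values are no check of such a ratio. Leaving out shared barcodes moved no ratio beyond its counting interval. Of 272 values in other classes, 42 left the interval and 1 reversed, *Areg* in inflammatory phagocyte-like cells with clusters (-0.26). Of 108 shares of cells, 11 left their interval. The cause of these shifts was not tested, beyond the smaller number of cells where cells were left out. No paired analysis was possible because each group holds 1 library. Treatment cannot be told apart from the library, the pooled mice or the sort, and genes under 50 UMIs are limited by depth.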
